A study of Mus musculus with 7 samples.

Results

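The dopamine and adrenergic receptors are cell-surface receptors, coupled to G proteins, for the catecholamines dopamine, noradrenaline and adrenaline. The 8 genes taken here were Drd1, Drd2, Drd4, Adra1b, Adra1d, Adra2a, Adra2c and Adrb1. Their probes were found through the array's gene annotation, by the current or an older gene symbol. Of the 8 genes, 5 had a probe listed and 3 (Drd1, Drd2 and Adra2c) had a value, among 9009 named genes with a value in all. The single probes of Drd4 and Adra1b and 1 of the 3 probes of Adra2c were blank on every array, and no probe is listed here for Adra1d, Adra2a or Adrb1. A blank probe gives no level, so nothing follows for these 5 genes.

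The brain tissue came from five-week-old female C57BL/6 mice, and its RNA was measured on 7 Illumina bead arrays. On 6 of these was RNA from mice that had taken a water extract of Ephedra herba orally every day, in doses of 1250 or 50 mg/kg, over 1, 3 or 10 days. The last array was that of untreated control mice. Ephedra stems contain ephedrine and related alkaloids, which act on adrenergic receptors directly and by releasing noradrenaline. Every combination of dose and day had 1 array, there were no replicates of a condition, and neither the number of mice behind an RNA sample nor the piece of brain taken is given in the labels. The p-values therefore measure the spread between these arrays, not between animals.

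Dopamine receptors fall into a D1 class, which includes Drd1 and stimulates adenylyl cyclase through Gs and Golf, and a D2 class, which includes Drd2 and Drd4 and inhibits it through Gi and Go. Drd1 and Drd2 are best known from the striatum, where they mark the direct-pathway and the indirect-pathway medium spiny neurons. Among adrenergic receptors, the alpha-1 group (Adra1b, Adra1d) acts through Gq and phospholipase C, the alpha-2 group (Adra2a, Adra2c) through Gi, and the beta group (Adrb1) through Gs. Drd2 and the alpha-2 receptors also serve as autoreceptors that limit the release of dopamine and noradrenaline.

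The sequences just upstream of the 3 measured receptors are shown because they belong to 3 genes whose levels are followed together in what comes next. They are from RefSeq (GRCm38.p6), 5′ to 3′ on the strand of the gene, and run up to the first base of the annotated gene. Capitals mark the Sp1 box, GGGCGG or its reverse complement CCGCCC. For Drd2, the last 43 bases of the window of 250 bases lay inside the annotated gene and are not shown, which leaves 207 bases.
Drd1, chr13:54055659-54055908, minus strand: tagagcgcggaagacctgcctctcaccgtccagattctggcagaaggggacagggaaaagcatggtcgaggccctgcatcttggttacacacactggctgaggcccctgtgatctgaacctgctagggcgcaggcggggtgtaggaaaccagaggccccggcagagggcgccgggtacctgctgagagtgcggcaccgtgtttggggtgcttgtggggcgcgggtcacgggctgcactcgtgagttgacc
Drd2, chr9:49340153-49340359, plus strand: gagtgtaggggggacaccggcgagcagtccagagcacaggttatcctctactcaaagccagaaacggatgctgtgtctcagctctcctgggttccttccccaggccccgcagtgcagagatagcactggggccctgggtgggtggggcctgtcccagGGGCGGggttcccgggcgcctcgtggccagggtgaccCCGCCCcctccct
Adra2c, chr5:35278316-35278565, plus strand: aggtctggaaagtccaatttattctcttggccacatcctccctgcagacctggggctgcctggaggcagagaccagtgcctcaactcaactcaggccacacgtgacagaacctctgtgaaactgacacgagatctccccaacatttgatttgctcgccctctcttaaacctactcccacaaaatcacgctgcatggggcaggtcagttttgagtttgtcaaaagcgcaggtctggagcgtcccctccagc
Both strands of the windows of 250 bases were searched for the Sp1 box, the cAMP response element TGACGTCA, its shorter site TGACG, which lies within the longer one, and the TATA box TATAAA. Drd2 held 2 Sp1 boxes, beginning 50 and 13 bases before the end of the stretch shown, and none of the other motifs. Drd1 and Adra2c held none of the 4 motifs in the windows shown. A second Drd1 window, before a start inside the gene, held 1 Sp1 box. Of 32851 such mouse windows, 32.7% held the Sp1 box, 1.55% the full cAMP response element, 17.8% its shorter site and 12.4% the TATA box. The G and C content was 64% for Drd1, 68.8% for Drd2 and 53.6% for Adra2c, beside a median of 52.4% over all windows.

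Values are probe intensities on a log scale after quantile normalization of the deposited log values, and each is the level of 1 probe on 1 array. The base of the logarithm is not stated in the sources used here. It was taken as 2, and every fold printed here rests on that choice. Levels of different probes are not set against each other. Over the 13304 probes with a value, the deposited array medians lay between 1.87 and 1.93. Over the 9009 genes after quantile normalization, the 6 treated arrays correlated with the control between 0.982 and 0.996.

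Drd2 varied the most of the 3 receptors over the 7 arrays. Its probe (4850301) read 2.70, 2.25 and 1.98 on days 1, 3 and 10 at 1250 mg/kg, 2.36, 2.26 and 2.22 on the same days at 50 mg/kg, and 2.43 in the control. The day 1 array at 1250 mg/kg was the highest and the day 10 array at 1250 mg/kg the lowest, 0.72 apart or 1.65-fold. Only that day 1 array was above the control, and the other 5 treated arrays were below it. The model put the SD of 1 array of Drd2 at 0.14.

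Drd1, read by probe 4860307, had levels of 3.54, 3.34 and 3.00 on days 1, 3 and 10 at 1250 mg/kg. It had 3.38, 3.17 and 3.29 at 50 mg/kg, and 3.15 in the control. The same day 1 and day 10 arrays at 1250 mg/kg were the extremes, 0.54 apart or 1.46-fold. Unlike Drd2, Drd1 was above the control on 5 of 6 treated arrays, all but day 10 at 1250 mg/kg. Day 3 at 50 mg/kg was only 0.023 above it and turned to -0.13 on the deposited values and -0.068 on median-centred arrays, so on those scales 4 of 6 were above. The model's SD of 1 array was 0.13.

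Adra2c, the alpha-2C adrenergic receptor, had 2 probes with values. The brighter one (3450326), which stands for the gene, read 2.10, 1.59 and 1.69 on days 1, 3 and 10 at 1250 mg/kg, 1.94, 1.75 and 1.79 at 50 mg/kg, and 1.85 in the control. Both day 1 arrays were above the control and the 4 later arrays were below it, over a range of 0.51 or 1.42-fold. The dimmer probe (7330348) read 1.36, 1.30 and 1.38 at 1250 mg/kg, 1.54, 1.29 and 1.17 at 50 mg/kg, and 1.17 in the control. On that probe 5 of 6 treated arrays were above the control and the day 10 array at 50 mg/kg was level with it (6 of 6 were above on the deposited values and on median-centred arrays), and the day 10 arrays did not lie below both day 1 arrays, so the 2 probes gave different patterns.

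**Figure D1:**
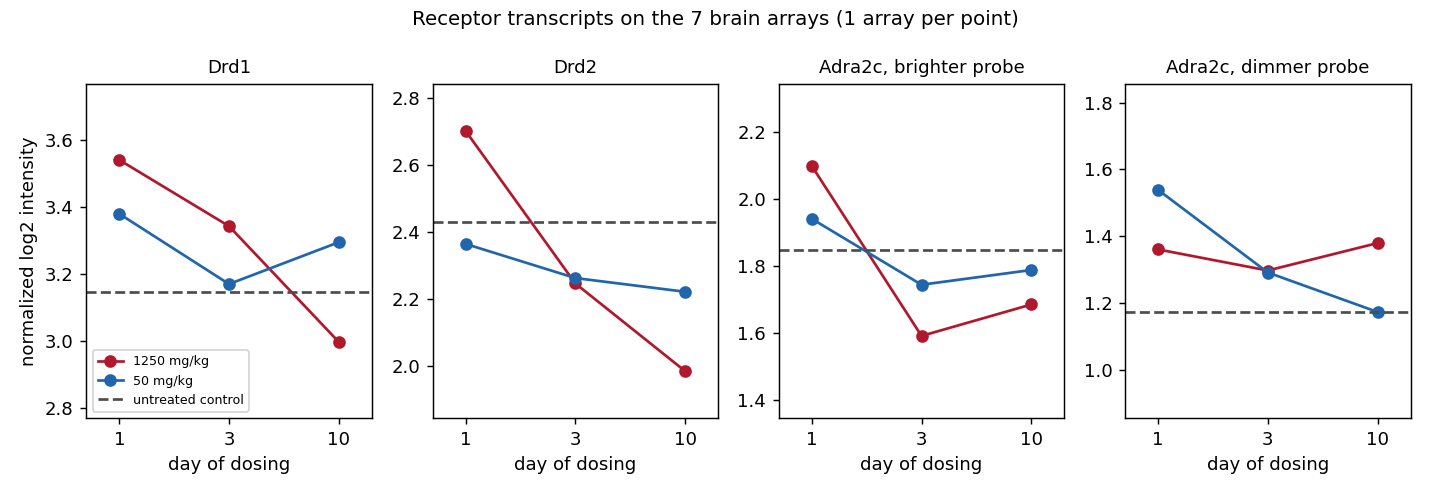
Normalized log2 intensity (vertical axis) of Drd1, Drd2 and the brighter and dimmer Adra2c probes by day of dosing (horizontal axis), with 1250 mg/kg in red, 50 mg/kg in blue and the untreated control as a dashed line. Each point is 1 array, so there are no error bars; at 1250 mg/kg Drd2 reads 2.70, 2.25 and 1.98 on days 1, 3 and 10.

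No receptor changed by 1.5-fold against the control on any treated array. This is a count without a test, since 1 array stands on either side. At 1250 mg/kg it was passed by 1.04% of all genes on day 1, 8.2% on day 3 and 2.09% on day 10. With 50 mg/kg it was passed by 0.311%, 7% and 1.39% on the same days. The nearest to the threshold was Drd2 on day 10 at 1250 mg/kg, at -0.44. Drd1 on day 1 at 1250 mg/kg came next, at 0.39, while Adra2c lay between -0.26 and 0.25 on its brighter probe and reached 0.37 on its dimmer one, on day 1 at 50 mg/kg.

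The comparison of treated with untreated mice asked whether the mean over all 6 treated arrays differed from the control. The 6 treated arrays averaged 3.29 ± 0.19 for Drd1 (SD, n = 6), against 3.15 in the control, a difference of 0.14 ± 0.19 (SE). For Drd2 the treated mean was 2.296 ± 0.24 (SD, n = 6), against 2.43 in the control, a difference of -0.13 ± 0.22 (SE). For Adra2c it was 1.81 ± 0.18, against 1.85, a difference of -0.041 ± 0.19 (SE). The limma fit over all 7 arrays, which assumes that the 1 control array varies like the treated ones, gave each an adjusted p of 0.999. It called 0 of 9009 genes (0%), and 162 had an unadjusted p under 0.05. This fit had no term for day or dose, so differences between days and doses counted in its spread. The 95% intervals were wide, -0.27 to 0.56 for Drd1, -0.62 to 0.36 for Drd2 and -0.47 to 0.39 for Adra2c. Changes of that size in either direction were not detectable with that spread and 1 control array. Adra2c turned to 0.063 when its probes were averaged.

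Dose was compared within days, 3 arrays at 1250 mg/kg against 3 at 50 mg/kg. None of the 3 receptors was called, where 0.144% of all genes were. Drd1 averaged 3.29 ± 0.28 at 1250 mg/kg and 3.28 ± 0.11 at 50 mg/kg (SD, n = 3 each), a difference of 0.012 ± 0.11 (SE, adjusted p = 0.994, 95% interval -0.22 to 0.24). Drd2 averaged 2.31 ± 0.36 at 1250 mg/kg and 2.28 ± 0.07 at 50 mg/kg, a difference of 0.028 ± 0.11 (adjusted p = 0.988, interval -0.21 to 0.27). Adra2c averaged 1.79 ± 0.27 at 1250 mg/kg and 1.83 ± 0.10 at 50 mg/kg, a difference of -0.033 ± 0.10 (adjusted p = 0.988, interval -0.25 to 0.18).

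These small means join days of opposite sign. The difference of 1250 minus 50 mg/kg was 0.34, -0.016 and -0.24 for Drd2 on days 1, 3 and 10. It was 0.16, 0.17 and -0.30 for Drd1. Adra2c had 0.16, -0.15 and -0.10 on the brighter probe, and -0.18, 0.0057 and 0.21 on the dimmer one. By the probe that stands for each gene, the dose of 1250 mg/kg gave the higher level of all 3 receptors on day 1 and the lower level of all 3 on day 10. The dimmer Adra2c probe had the opposite signs on both days. The share of all genes with this order was not counted. Each daily difference rests on 1 array a side. Whether the dose effect differed between days could not be tested, since the fit counts such differences as spread.

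Length of dosing was compared over the 2 doses, with dose as a block. Drd2 had the largest difference of the 3 receptors between day 10 and day 1. It averaged 2.10 ± 0.17 on day 10 and 2.53 ± 0.24 on day 1 (SD, n = 2 each), a difference of -0.43 ± 0.14 (SE) or 0.742-fold, with a 95% interval of -0.72 to -0.14 before adjustment. Over all genes its adjusted p was 0.112, so it was not called. Drd1 averaged 3.15 ± 0.21 on day 10 and 3.46 ± 0.11 on day 1, a difference of -0.31 ± 0.13 (adjusted p = 0.224). Adra2c averaged 1.74 ± 0.07 on day 10 and 2.02 ± 0.11 on day 1, a difference of -0.28 ± 0.13 (adjusted p = 0.245), and its dimmer probe had -0.17 ± 0.13 (adjusted p = 0.523 over all probes). Of all genes, 1.93% were called in this comparison, 126 higher and 48 lower on day 10, and the median over all genes was -0.012.

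The call for Drd2 depended on the scaling of the arrays. On the deposited values without quantile normalization its day 10 minus day 1 difference was -0.51, with an adjusted p of 0.0454. On that scale 5.18% of all genes were called, 131 higher and 336 lower, and the median over all genes was -0.082.

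Between day 3 and day 1, Adra2c came closest to a call. It averaged 1.67 ± 0.11 on day 3 and 2.02 ± 0.11 on day 1 (SD, n = 2 each), a difference of -0.35 ± 0.13 (SE) or 0.783-fold, with an adjusted p of 0.0556. Drd2 averaged 2.25 ± 0.01 on day 3 and 2.53 ± 0.24 on day 1, a difference of -0.28 ± 0.14 (adjusted p = 0.162). Drd1 averaged 3.26 ± 0.12 on day 3 and 3.46 ± 0.11 on day 1, a difference of -0.20 ± 0.13 (adjusted p = 0.288). The background here was high, with 21.1% of all genes called, 1002 higher and 903 lower on day 3.

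Adra2c lay at the threshold and crossed it under 4 other settings. It did not cross it with its probes averaged, at -0.25 (adjusted p = 0.105). Nor did it without the intensity trend (adjusted p = 0.0511) or without the dose block (adjusted p = 0.0556). Its difference was -0.39 on the deposited values (adjusted p = 0.0298), where 30.3% of all genes were called and the median over all genes was -0.13. With each array centred on its median it was -0.35 (adjusted p = 0.0478, 27.6% of genes called). Fitting every probe on its own gave the brighter probe an adjusted p of 0.0499, with 22.2% of probes called, while the dimmer probe had -0.16 ± 0.13 and an adjusted p of 0.407. Leaving out the day 10 arrays gave 0.0351, with 23.7% of genes called. A call for Adra2c on day 3 is therefore a call of 1 of its 2 measured probes, in a comparison where between 21.1% and 30.3% of features were called.

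From day 3 to day 10 none of the 3 receptors was called, beside 10.2% of all genes. The difference of day 10 minus day 3 was -0.11 ± 0.13 (SE) for Drd1 (adjusted p = 0.657). It was -0.15 ± 0.14 for Drd2 (adjusted p = 0.542) and 0.069 ± 0.13 for Adra2c (adjusted p = 0.787).

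**Figure D2:**
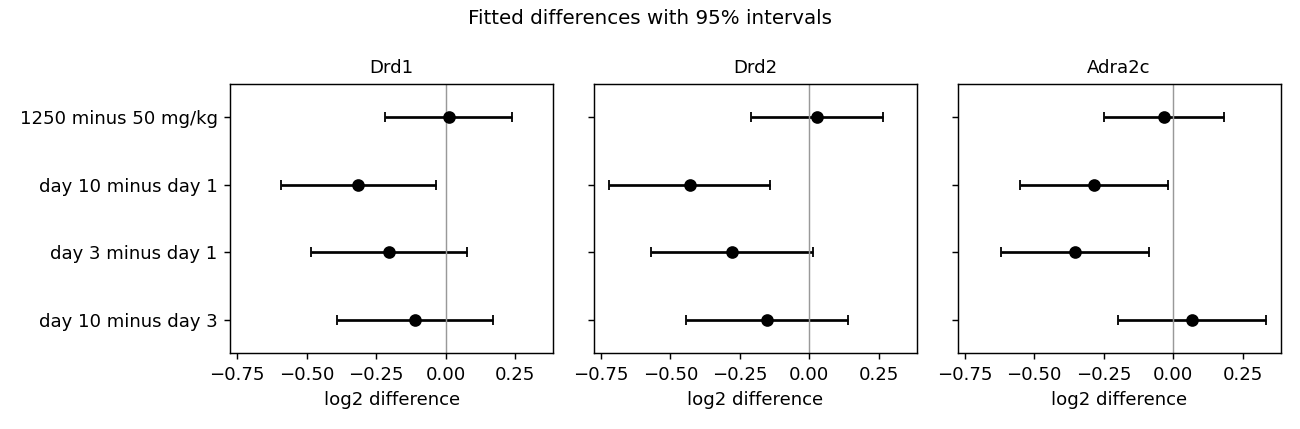
Differences of normalized log2 intensity for Drd1, Drd2 and Adra2c (brighter probe) in 4 comparisons, with 95% intervals from the model before adjustment over genes. For Drd2 the interval of day 10 minus day 1 runs from -0.72 to -0.14, and for Adra2c that of day 3 minus day 1 from -0.62 to -0.09, yet no receptor passed the adjusted threshold.

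Both day 1 arrays were above all 4 later treated arrays in each of the 3 receptors, a pattern singled out after the values were seen. The lower of the day 1 values was 3.38 for Drd1, 2.36 for Drd2 and 1.94 for Adra2c, where the highest later value was 3.34, 2.26 and 1.79 in the same order of genes. Of all 9009 genes, 16.6% had the same order of arrays, so it is a common one in this series. The dimmer Adra2c probe did not have it.

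The day 10 minus day 1 difference was larger in size at 1250 mg/kg than at 50 mg/kg in each receptor. It was -0.72 at 1250 mg/kg and -0.14 at 50 mg/kg for Drd2, -0.54 and -0.084 at the same doses for Drd1, and -0.41 and -0.15 for Adra2c. The dimmer Adra2c probe went the other way, with 0.019 at 1250 mg/kg and -0.37 at 50 mg/kg. These are differences of single arrays, and the difference between doses could not be tested with 1 array for each dose and day. They come from the same arrays as the dose differences of days 1 and 10 above, so they are not a separate result.

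Drd1 and Drd2 are made mainly in some regions of the brain, and markers of regions also differed between the arrays. In bulk tissue, fewer cells of a type and less RNA per cell cannot be told apart. Of 14 striatal neuron markers 9 were measured, and their summed linear level was 192 to 224 on day 10, 178 to 194 on day 3, 224 to 237 on day 1 and 217 in the control. Against the control the median striatal marker was 0.11, -0.096 and -0.28 on days 1, 3 and 10 at 1250 mg/kg, beside 0.27, -0.18 and -0.44 for Drd2. At 50 mg/kg it was 0.13, -0.23 and 0.075, beside -0.064, -0.17 and -0.21 for Drd2. At 1250 mg/kg Drd1, Drd2 and the median striatal marker were all highest on day 1 and lowest on day 10. At 50 mg/kg Drd2 was again lowest on day 10, while Drd1 and the median striatal marker were lowest on day 3. The median of the receptor desensitization and scaffold genes described below ran 0.045, 0.022 and -0.13 at 1250 mg/kg, the same order. The share of all genes with this order was not counted.

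Of the 9 striatal markers, 8 were lower on day 3 than on day 1, with a median of -0.26, and 5 were called. Of all genes, 56% were lower, with a median of -0.041, and 21.1% were called. Rgs9, which speeds the turn-off of Gi signals in the striatum, fell by 0.56 on the log2 scale (adjusted p = 0.0101). Gpr6, an orphan receptor of indirect-pathway neurons, fell by 0.40 (adjusted p = 0.0345), and Scn4b, a sodium channel beta subunit, fell by 0.36 (adjusted p = 0.0263). Ppp1r1b, which encodes DARPP-32, the phosphatase inhibitor that Drd1 signals switch on and Drd2 signals switch off, fell by 0.34 (adjusted p = 0.0403, or 0.0562 without the intensity trend). Pde10a, the striatal phosphodiesterase of cAMP and cGMP, rose by 0.51 (adjusted p = 0.0196). The count of 5 was 9 on the deposited values, 1 higher and 8 lower, and 8 on median-centred arrays, where 30.3% and 27.6% of all genes were called. Between day 10 and day 1 the striatal median was -0.19, with 8 of 9 lower and none called. Of all genes, 52.6% were lower and 1.93% were called. The striatal median was -0.41 on the deposited values, with 1 called, where 5.18% of all genes were called. It was -0.37 on median-centred arrays. On both scales 9 of 9 were lower, where 64.8% and 58.5% of all genes were lower.

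Markers of other tissues and regions moved with the day as well. Of 4 measured markers of hindbrain and locus coeruleus, of 8 listed, the summed level was 6.98 to 8.42 on day 10, 9.15 to 10.1 on day 3, 4.43 to 5.49 on day 1 and 6.2 in the control. Of 12 cerebellar markers 6 were measured, with sums of 131 to 269 on day 10, 113 to 135 on day 3, 88.6 to 93.2 on day 1 and 97.2 in the control. The anterior pituitary makes Drd2 in its prolactin cells, and only Gh and Prl of its 8 markers had values. Their sum was 1.19 on both day 10 arrays, 1.34 (1250 mg/kg) and 15.7 (50 mg/kg) on day 3, 18.5 to 27.7 on day 1 and 2.93 in the control. Cortical and hippocampal markers, 7 of 12 measured, summed to 92.3 to 101 on day 10, 116 to 117 on day 3, 102 to 116 on day 1 and 107 in the control. Thalamic markers, 6 of 8, summed to 177 to 192 on day 10, 167 to 176 on day 3, 155 to 156 on day 1 and 165 in the control. Liver markers, 7 of 8, summed to 10.8 to 68 at 1250 mg/kg, 6.72 to 19.7 at 50 mg/kg and 8.63 in the control. Heart markers, 3 of 8, summed to 13.1 to 25.8 on the treated arrays and 36.3 in the control, and none of 8 pineal and retinal markers had a value. The part of these markers in the receptor values was not tested.

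**Figure D3:**
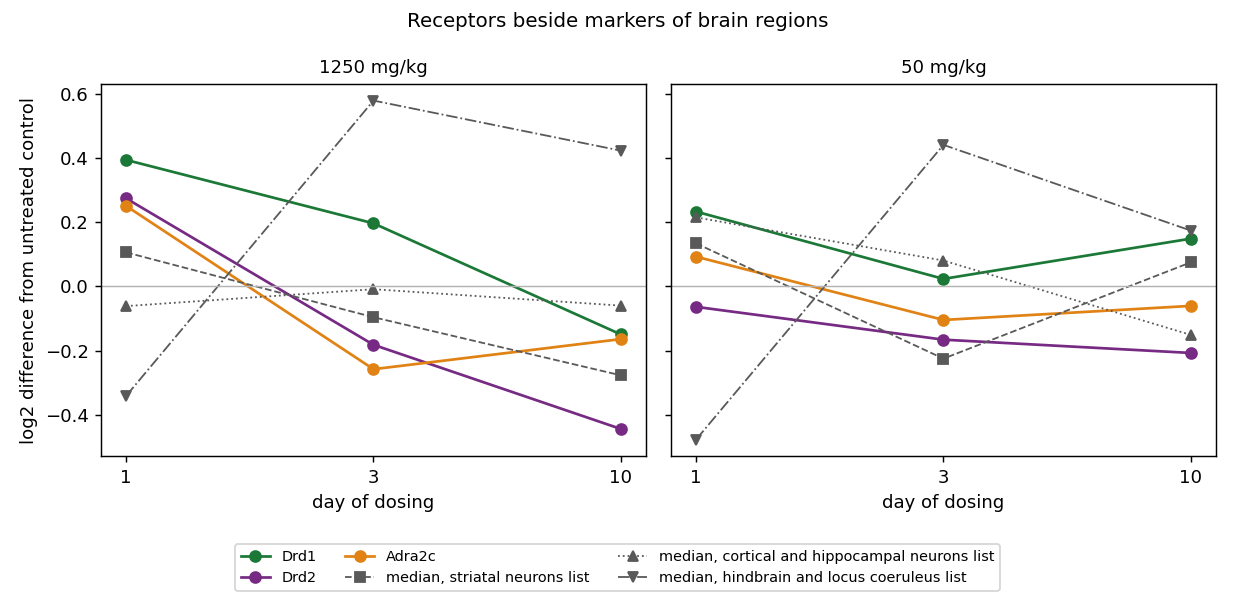
Log2 difference from the untreated control (vertical axis) by day of dosing (horizontal axis) at 1250 mg/kg (left) and 50 mg/kg (right) for Drd1, Drd2 and Adra2c, beside the median of the striatal, cortical and hippocampal, and hindbrain marker lists. Each point is 1 array or a median over markers on 1 array; at 1250 mg/kg the striatal median runs 0.11, -0.096 and -0.28 and Drd2 0.27, -0.18 and -0.44.

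The dopamine receptors Drd3 and Drd5 had probes that were blank on all arrays, so they could not be described. In the 4 signalling and catecholamine lists, no gene passed the dose test, where 0.144% of all genes did. Their calls between day 3 and day 1 stand beside the 21.1% of all genes called there. These lists share genes with the marker lists. Ppp1r1b, Pde10a, Rgs9 and Gng7 are also striatal markers, and Th is also a hindbrain marker. Each is counted in both of its lists.

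Of 15 listed G protein subunits 13 were measured. Between day 3 and day 1, 3 rose and 3 fell, with a median of -0.22, where 21.1% of all genes were called. Gnaq, the Gq alpha subunit used by alpha-1 receptors, rose by 0.57 ± 0.11 (SE, adjusted p = 0.00245). Gnas, the Gs alpha subunit, rose by 0.47 ± 0.14 (adjusted p = 0.0225), and Gnai2, an inhibitory alpha subunit, rose by 0.42 ± 0.11 (adjusted p = 0.0161). Gnb5, the beta subunit that pairs with Rgs9, fell by 0.66 ± 0.12 (adjusted p = 0.00106). Gng2, a gamma subunit, fell by 0.49 ± 0.12 (adjusted p = 0.0105), and Gnaz, an alpha subunit of the Gi class, fell by 0.375 (adjusted p = 0.0216). Gnal, which encodes Golf, the striatal partner of Drd1, had -0.21 ± 0.14 (adjusted p = 0.3). Gnao1, the Go alpha subunit, was 0.55 lower on day 10 than on day 3 (adjusted p = 0.00451). Gnaq had -0.47 in that comparison (adjusted p = 0.0146), which called 10.2% of all genes.

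Some of these calls rest on the scaling or on the probe. On the deposited values the split of the G protein subunits was 1 higher and 6 lower between day 3 and day 1, and Gnas had an adjusted p of 0.205. With the probes of a gene averaged, Gnas had 0.12 (adjusted p = 0.454) and Gnb5 -0.24 (adjusted p = 0.123). Between day 10 and day 1 none of the 13 was called, beside 1.93% of all genes. Of the 13, 9 were lower, with a median of -0.25, where 52.6% of all genes were lower. On the deposited values 5 were called lower, where 5.18% of all genes were called.

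Among 19 measured effectors of cAMP and calcium signals, of 27 listed, 4 rose and 2 fell between day 3 and day 1, a called share of 31.6% against 21.1% of all genes. Besides Pde10a, the genes that rose were Adcy9, an adenylyl cyclase, by 0.46 ± 0.14 (SE, adjusted p = 0.0256), Plcb4, a phospholipase C of the Gq pathway, by 0.41 ± 0.12 (adjusted p = 0.0249), and Akap12, an anchor for protein kinase A, by 0.35 ± 0.12 (adjusted p = 0.0479). Ppp1r1b fell, as did Plcb3, a phospholipase C, by 0.515 (adjusted p = 0.00861). The median of the list was 0.11, and it turned to -0.13 on the deposited values and -0.089 on median-centred arrays, where Akap12 was also not called (adjusted p = 0.231 and 0.149). Adcy1, a calcium-stimulated cyclase, was 0.45 higher on day 10 than on day 3 (adjusted p = 0.0308), and Pde10a was 0.92 lower (adjusted p = 0.000602). Plcb4 had -0.47 in that comparison (adjusted p = 0.0212), which called 10.2% of all genes. Between day 10 and day 1 none of the 19 was called, beside 1.93% of all genes. On the deposited values 1 was called lower, where 5.18% of all genes were called.

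Of 16 measured genes for receptor desensitization and scaffolding, of 19 listed, none rose and 3 fell between day 3 and day 1, a share of 18.8%, which is near the 21.1% of all genes. They were Rgs9, Dlg4, the postsynaptic scaffold PSD-95, by 0.42 ± 0.11 (adjusted p = 0.0149), and Caly, a protein that binds the D1 receptor, by 0.41 ± 0.13 (adjusted p = 0.0362). Dlg4 was the only one called between day 10 and day 1, where 1.93% of all genes were called. It had -0.50 ± 0.11 (adjusted p = 0.0346), and was not called there without the dose block (adjusted p = 0.0709). On the deposited values 3 were called lower in that comparison, where 5.18% of all genes were called. The median for day 3 minus day 1 was 0.063 and turned to -0.083 on the deposited values and -0.044 on median-centred arrays. Rgs8, which dampens Gi signals, was 0.80 above the control on day 10 at 1250 mg/kg, and between -0.014 and 0.19 on the other 5 treated arrays. The median cerebellar marker was also highest on that array, at 2.09 against -0.25 to 1.21 on the other 5, and its part was not tested.

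Of 11 genes for making, moving or breaking down catecholamines 5 were measured, and 2 rose between day 3 and day 1, in a comparison that called 21.1% of all genes. Slc6a3, the dopamine transporter, rose by 0.59 ± 0.16 (adjusted p = 0.0151) and Ddc, the decarboxylase that makes dopamine, rose by 0.48 ± 0.12 (adjusted p = 0.00917). Against the control Slc6a3 was -0.38, -0.075 and -0.31 on days 1, 3 and 10 at 1250 mg/kg, and -0.92, -0.044 and -0.018 at 50 mg/kg. All 6 treated arrays were thus below the control, with the day 1 arrays lowest. Th, tyrosine hydroxylase, had 0.18 ± 0.14 between day 3 and day 1 (adjusted p = 0.398). None of the 5 was called between day 10 and day 1, beside 1.93% of all genes. Leaving out the day 3 arrays changed this count. The share of all genes called in that setting was not counted, so nothing is read from it. The list as a whole was mixed, with 3 higher and 2 lower. Hindbrain and locus coeruleus markers had a median of 0.85 between day 3 and day 1, with 3 of 4 called, and their part was not tested.

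**Figure D4:**
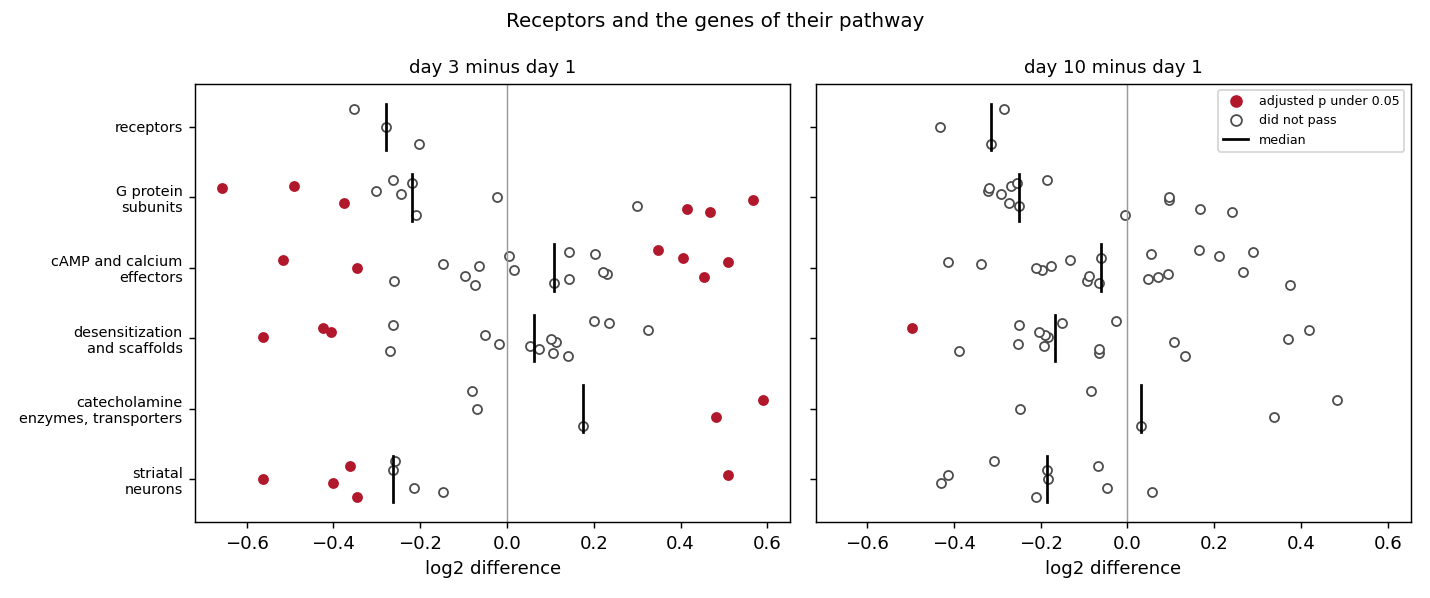
Log2 differences of day 3 minus day 1 and day 10 minus day 1 for each measured gene of the receptors, the 4 signalling and catecholamine lists and the striatal markers, with 1 dot a gene, a bar at each list's median and red dots for genes past an adjusted p of 0.05. The G protein list holds 3 genes that rose and 3 that fell on day 3. The 3 receptors lie below 0 with no red dot, and the only red dot on day 10 is Dlg4. Ppp1r1b, Pde10a, Rgs9 and Gng7 each have a dot in the striatal list and in a signalling list.

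The genes whose pattern lay nearest to that of Drd2 were Dlx1as, Phf24 and Plaur, by the mean absolute difference of their changes against the control over the 6 treated arrays. That measure was 0.0547 for Dlx1as, 0.0552 for Phf24 and 0.0565 for Plaur, out of 9008 genes compared. Dlx1as, a non-coding RNA opposite the Dlx1 gene, had 0.23, -0.089 and -0.32 on days 1, 3 and 10 at 1250 mg/kg and -0.061, -0.13 and -0.18 at 50 mg/kg. All patterns are set against 1 shared control array. Drd1 and Adra2c ranged over less than 1.5-fold and no nearest genes were sought for them.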

How the data were processed

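Biotin-labelled cRNA from brain was measured on 7 Illumina bead arrays, 1 for each condition. The deposited table holds log2 values, with base 2 assumed here, and the sources used here do not give its centring, background step or rule for blanks. All arrays held a value for 13304 of 25697 probes (51.8%). Another 7 columns of intensities could not be matched to samples by name and were left out. Probes were named by the platform annotation, updated by Entrez number. Of the valued probes 12150 had 1 symbol, 0 several and 1154 none.

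Arrays were quantile normalized (limma 3.58.1, R 4.3.3), and the brightest probe stood for each of 9009 genes, 2273 of which had several. lmFit and eBayes with an intensity trend were fitted to all genes, with Benjamini-Hochberg adjusted p under 0.05 as a call. Dose and day were fitted together on 6 treated arrays, with 2 residual and 14.1 prior degrees of freedom, so the spread is mostly that shared by all genes. The treatment fit had 5 and 5.74. The fits were tested on simulated data. Members, lists and tests were chosen with earlier results of these data known. Named genes are the members, the 3 nearest in pattern to a member ranging over at least 1.5-fold, and up to 5 genes a list that passed a test or moved 1.5-fold, largest first; others named complete a count or were chosen after their values were seen. Array number limits the precision. Alternatives were scaling, probe choice, filter, trend, block and leaving out a day or dose.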

Additional observations from a re-analysis of the deposited data

How the results depend on the processing

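Each condition had 1 array and no replicate number, so arrays could be matched only by day or by dose. The blocks of the fits were the day and the dose, and leaving either out called 0 receptors. Of the 3 measured receptors, 0 were called in any comparison. The count became 1 for day 10 minus day 1 on the deposited values (Drd2), and 1 for day 3 minus day 1 on the deposited values, on median-centred arrays, with every probe fitted on its own (added after seeing the data) and without the day 10 arrays (Adra2c each time). The cause was not tested. The order of day 1 above all 4 later arrays held in 3 of 3 receptors on both other scales. It held in 29.7% of all genes on the deposited values and 23.9% on median-centred arrays. Dose differences near 0 changed sign. Drd1 had -0.063 without day 1 and -0.069 without day 3, Drd2 had -0.13 without day 1, and Adra2c had 0.027 without day 3 and 0.0022 without day 10. For Adra2c, treatment gave 0.063 with its probes averaged and 0.030 without day 3. Its dimmer probe gave 0.011 for dose, -0.018 for day 10 minus day 3 and 0.17 for treatment. Against the control, Drd1 on day 3 at 50 mg/kg turned to -0.13 on the deposited values and -0.068 on median-centred arrays. Of the other fitted differences of the receptors under the alternatives, 120 kept their direction and side of the threshold and 5 became calls, as above. With only the brighter probes kept, Adra2c had no value. Day 3 minus day 1 calls over all genes leaned lower on the deposited values (798 higher, 1934 lower) and on median-centred arrays (904 higher, 1580 lower). Low signal over an unknown background may understate changes, above all for the dim Adra2c probes.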
